A study of Mus musculus with 6 samples.

Results

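Expression of 10 cytokine and receptor genes was followed in bleomycin-exposed mouse skin: the interleukin-1 genes Il1a, Il1b and Il1rn, the gp130 cytokines Il6 and Il11, the tumour necrosis factor gene Tnf, the epithelial alarmins Il33 and Tslp, and Il4ra and Il13ra1, the receptor chains for IL-4 and IL-13. They were chosen by name, with earlier results of these data known, and all 10 were found among the 27179 genes of the count table. Skin of female BALB/c mice aged 6 to 8 weeks was represented by 6 libraries in 4 groups: control (1 library), bleomycin (1), bleomycin with EHP-101 (1) and bleomycin with ajulemic acid (3). Bleomycin damages DNA, and its use on mouse skin is a model of scleroderma. EHP-101 is an oral formulation of a quinone derived from cannabidiol, and ajulemic acid is a synthetic cannabinoid. Doses, routes, times and any vehicle given to the control and bleomycin mice are not stated in the labels used here, nor whether a library came from 1 animal or several.

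The cytokines of this group act early in injured skin. IL-1 alpha is held in keratinocytes and released when they are damaged, IL-1 beta is made mainly by myeloid cells and must be cut by caspase-1, and the antagonist encoded by Il1rn occupies their shared receptor without signalling. IL-33 is stored in the nuclei of keratinocytes, endothelium and fibroblasts. Released from damaged cells, it acts with TSLP on mast cells and innate lymphoid cells, whose IL-13 signals to fibroblasts through the pair of IL-4 receptor alpha and IL-13 receptor alpha 1. IL-6 and IL-11 signal through gp130 to STAT3, and both have been studied as drivers of fibrosis.

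The libraries held between 14291592 and 19837682 counts. The labelled tissue was borne out by its markers: Krt5 and Krt14, keratins of basal epidermis, were at 1112 CPM or more in every library and the collagen gene Col1a1 at 704 CPM or more. CPM are counts scaled to library size, with sizes adjusted by the trimmed mean of M values (TMM). In sums over marker lists the libraries differed in ways the labels do not name. The 9 hair shaft genes, all detected in every library, summed to 11697 CPM in control skin, 1036 after bleomycin alone, 10319 under EHP-101 and 10871, 508 and 25605 in ajulemic acid replicates 1, 2 and 3. The 10 hepatocyte genes, 8 of them detected in every library, summed to 1353, 976 and 901 CPM in control, bleomycin and EHP-101, and to between 133 and 292 CPM with ajulemic acid. In the ajulemic acid libraries most of this sum was Trf, at 151, 159 and 108 CPM in replicates 1, 2 and 3. The defining markers Alb, Apoa1 and Apoa2 were at 0 in no library, but Apoa2 had as few as 1 count. Alb was at 678, 477 and 454 CPM in control, bleomycin and EHP-101, and at 1.74 to 12.6 CPM with ajulemic acid. The part of these differences in the results below was not tested. In bulk tissue, fewer cells of a type and less RNA per cell cannot be told apart.

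Sequences upstream of 4 members are shown, because Il1b, Il6 and Tnf were the members lowest in the control library, and because Il33 had the widest spread among the 4 members highest in the bleomycin library. Each is the 250 bases before an annotated start, 5′ to 3′, from RefSeq on GRCm38.p6, the assembly also called mm10. Capitals mark matches on either strand to any of 5 motifs. The kB motif was searched as GGGA and CC with any 4 bases between them, and the AP-1 motif as TGANTCA. The STAT3 and STAT6 motifs were searched as TTC and GAA with any 3 and any 4 bases between them, and the TATA box as TATAAA.
Il1b: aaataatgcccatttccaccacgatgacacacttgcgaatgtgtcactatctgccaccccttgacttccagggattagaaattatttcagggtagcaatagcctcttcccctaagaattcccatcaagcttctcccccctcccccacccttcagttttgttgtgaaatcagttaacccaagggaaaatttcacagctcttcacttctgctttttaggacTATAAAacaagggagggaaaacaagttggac
Il6: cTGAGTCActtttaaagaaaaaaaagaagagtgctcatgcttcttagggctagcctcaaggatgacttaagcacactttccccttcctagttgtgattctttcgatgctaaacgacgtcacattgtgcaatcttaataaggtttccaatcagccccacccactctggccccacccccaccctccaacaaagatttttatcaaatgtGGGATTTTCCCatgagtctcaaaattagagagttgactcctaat
Tnf: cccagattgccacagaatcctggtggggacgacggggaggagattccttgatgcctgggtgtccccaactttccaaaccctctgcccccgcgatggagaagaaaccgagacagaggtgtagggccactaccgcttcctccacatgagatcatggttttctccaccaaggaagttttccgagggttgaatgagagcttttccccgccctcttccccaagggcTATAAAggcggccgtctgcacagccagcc
Il33 first start: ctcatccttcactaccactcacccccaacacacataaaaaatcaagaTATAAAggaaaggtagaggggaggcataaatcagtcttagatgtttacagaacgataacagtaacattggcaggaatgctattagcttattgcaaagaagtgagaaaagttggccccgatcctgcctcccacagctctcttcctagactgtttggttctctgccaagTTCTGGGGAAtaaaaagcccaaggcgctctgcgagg
Il33 second start: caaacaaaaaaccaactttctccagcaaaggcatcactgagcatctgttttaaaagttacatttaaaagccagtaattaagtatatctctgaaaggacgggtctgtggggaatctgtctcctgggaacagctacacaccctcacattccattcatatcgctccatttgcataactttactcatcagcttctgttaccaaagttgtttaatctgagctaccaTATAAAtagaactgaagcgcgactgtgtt
The windows lie at chr2:129371140-129371389, minus strand (Il1b), chr5:30012864-30013113, plus strand (Il6), chr17:35202008-35202257, minus strand (Tnf), chr19:29924863-29925112, plus strand (Il33, first start) and chr19:29945540-29945789, plus strand (Il33, second start).

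Among the 3 genes lowest in control, the Il6 window alone held the kB letters, as 2 overlapping matches at -44 to -35 and -43 to -34 from the start that appear as 1 run, and it also held an AP-1 match at its far end. The windows of Il1b and Tnf held TATAAA at -31 to -26 and -29 to -24, and no other motif searched. The first Il33 window held TATAAA at -203 to -198 and the STAT6 motif at -36 to -27, and the second held TATAAA at -29 to -24. Of 32851 windows of this length, 17.6% held the kB letters, 7.02% the STAT3 motif, 5.85% the STAT6 motif, 6.75% the AP-1 letters and 12.4% TATAAA. The matches describe letters only. Windows were found for 9 of the 10 members.

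All 10 members were detected in every library, over a wide range of levels. Per exon length, Il13ra1 was the most abundant, at 24.9 to 46.1 RPKM (CPM per kilobase of exon), above every library's value for Il1rn, at 15.4 to 22.3 RPKM. Il33 (6.19 to 20.4 RPKM) overlapped both Il1rn and Il4ra (8.19 to 14.5 RPKM). Il4ra lay above Il1a (3.06 to 6.42 RPKM) without overlap, and Il1a overlapped Il1b (1.48 to 6.56 RPKM). Tnf was at 1.01 to 1.81 RPKM and overlapped Il1b on one side and Tslp (0.636 to 1.76 RPKM) on the other. Il6 (0.121 to 0.633 RPKM) and Il11 (0.0660 to 0.462 RPKM) overlapped each other and came last. Counts ran from 2 to 12 for Il6 and from 2 to 18 for Il11, so both were close to the detection limit, and each passed the filter on low counts only through ajulemic acid libraries, where it was higher. Their presence in a count of members higher with ajulemic acid, or lowest in another library, is therefore no support for that count.

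**Figure D1:**
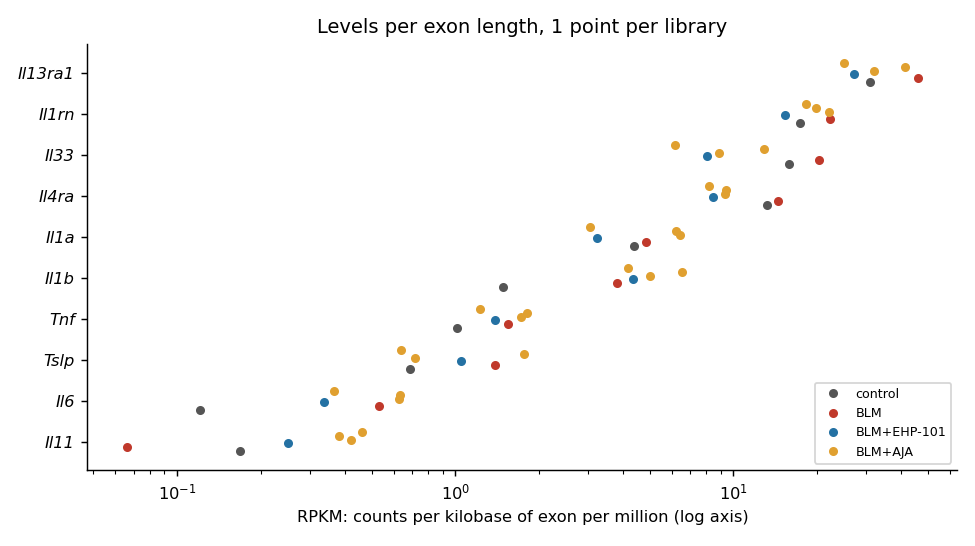
Levels of the 10 genes per exon length, in RPKM on a log axis, with 1 point per library coloured by group (BLM, bleomycin; AJA, ajulemic acid). Il13ra1 lies highest at 24.9 to 46.1 RPKM, and Il6 and Il11 lie below 1 RPKM in every library.

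Differences were tested with edgeR's quasi-likelihood test in 1 fit of all 6 libraries. Of the 17377 genes tested in bleomycin against control, 0% were called at an adjusted p under 0.05, and 0 of the 10 members were. With 1 library used in 3 of the groups, the spread came only from the 3 ajulemic acid libraries. The single libraries therefore have no replicate check of their own in this fit. What the p-values capture is spread among these samples alone, part of which may be technical. Intervals given for single libraries are exact 95% intervals and cover counting error only.

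Bleomycin exposure was first compared with control skin. Of the members, 9 were above control in bleomycin by their log2 fold change, where 49.5% of all tested genes were, and the median over the 10 was 0.47 against -0.01 over all genes. The log2 fold change was largest for Il6 (2.07, from 2 counts in control) and Il1b (1.36), smallest for Il4ra (0.13) and Il1a (0.14), and negative for Il11 (-1.31, from 2 counts in bleomycin). The 95% counting interval of the ratio of the libraries lay above 1 for 6 members, Il1b, Il1rn, Il33, Tslp, Il13ra1 and Il4ra. This was true of 24.8% of all tested genes, and the interval lay below 1 for 25.4% of them and for 0 members; it compares these libraries, not the conditions. At an unadjusted p under 0.05, 1 member was higher (Il1b) and 0 lower, where 4.7% of all genes were higher and 2.1% lower. DESeq2 and limma called 0 members.

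Il1b was at 1.97 CPM in control skin, 5.07 after bleomycin alone, 5.79 under EHP-101 and 6.68, 8.71 and 5.53 CPM in ajulemic acid replicates 1 to 3. These values rest on 30, 79 and 95 counts and on 98, 152 and 111 counts. Control was thus the lowest library, as for 22% of all tested genes, and the 5 bleomycin-exposed libraries lay above it. Markers of neutrophils, which also make IL-1 beta, summed to 13.9 CPM in control skin, 39.1 after bleomycin alone, 17.6 under EHP-101 and 22.5, 28.5 and 19.7 CPM under ajulemic acid, with 8 of 10 markers detected in every library and S100a8, S100a9 and Csf3r at 0 in none. The 10 macrophage markers summed to 639, 777 and 583 CPM in the first 3 libraries and to 608 to 809 CPM with ajulemic acid. Of the 7 neutrophil markers tested, 5 were higher in bleomycin than in control and 2 lower. Of the 10 macrophage markers, 6 were higher and 4 lower. The part of these cells in the Il1b values was not tested. In bleomycin against control the log2 fold change was 1.36 (SE 0.46), with an adjusted p = 0.721 by edgeR, and the ratio of the 2 libraries was 2.57 (95% counting interval 1.67 to 4.06). With ajulemic acid, at 6.97 ± 1.61 CPM (SD, n = 3), it was 1.82 (SE 0.41) above control, with an adjusted p = 0.313 by edgeR, and in EHP-101 1.55 (SE 0.46), with an adjusted p = 0.905. Leaving out ajulemic acid replicate 3 raised the number of calls over all genes against control, as given below. In that setting edgeR also called Il1b higher with ajulemic acid than in control (log2 fold change 1.96). Over that result's 16 alternatives the adjusted p ran from 0.0486 to 0.9999.

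The Il1b gene (gene 16176, chromosome 2, 129364579 to 129371120 in mm10, minus strand) overlaps Il1bos, an antisense transcript counted on the plus strand. Il1bos had between 6 and 17 counts in each library, and 13 in control. The strand setting of the counting was not stated, so reads of the pair cannot be told apart with certainty.

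Il1a lies nearby on the same chromosome (gene 16175, 129299610 to 129309972, minus strand). It was at 8.67 CPM in control skin, 9.56 after bleomycin alone, 6.40 under EHP-101 and 12.7, 12.3 and 6.03 CPM under ajulemic acid. The ajulemic acid libraries spanned the other 3, from the highest to the lowest of all 6. In bleomycin against control its log2 fold change was 0.14 (95% interval -1.41 to 1.69). Il1a overlaps Gm14023 on the plus strand, which had 14 to 28 counts in each library beside 105 to 215 for Il1a, so its values carry the same doubt about strand.

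Il1rn, the antagonist gene (gene 16181, chromosome 2, 24336860 to 24351491, plus strand), was at 46.8 CPM in control skin, 59.9 after bleomycin alone, 41.3 under EHP-101 and 59.3, 53.3 and 49.1 CPM under ajulemic acid. EHP-101 was the lowest of the 6 libraries and bleomycin the highest. The log2 fold change in bleomycin against control was 0.36 (95% interval -0.23 to 0.94). The counts join transcripts from all starts of the gene, so the secreted and intracellular forms are not separated.

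Il6 (gene 16193, chromosome 5, 30013161 to 30019968) had 2 counts in control skin, 9 after bleomycin alone, 6 under EHP-101 and 10, 12 and 8 under ajulemic acid. Control was again the lowest, but the ratio of bleomycin to control, 4.40, had a counting interval of 0.910 to 41.8, which includes 1. Tnf (gene 21926, chromosome 17, 35199390 to 35201996) was at 1.64 CPM in control skin, 2.50 after bleomycin alone, 2.26 under EHP-101 and 2.79, 2.92 and 1.99 CPM under ajulemic acid. It also had its lowest value in control, with a ratio of bleomycin to control of 1.52 (counting interval 0.899 to 2.63). In all, control was the lowest of the 6 libraries for 3 members, Il1b, Il6 and Tnf, where this was so for 22% of all tested genes. Il6 is no support for that count, because it passed the filter only through ajulemic acid libraries. The 10 skeletal muscle markers, all detected in every library, also had their lowest sum in control, with 8527 CPM in control skin, 23247 after bleomycin alone, 23403 under EHP-101 and 15907, 22283 and 9762 CPM under ajulemic acid. All 10 had a log2 fold change above 0 between bleomycin and control, with 0 called by edgeR and 6 at an unadjusted p under 0.05. Of all tested genes, 49.5% had a log2 fold change above 0 and 4.7% were higher at that p. The 10 adipocyte markers had their highest sum in control, with 2715 CPM in control and 1045 to 1974 CPM in the other 5 libraries. The defining markers of both lists, Acta1, Ckm and Myh1 and Adipoq, Plin1 and Cidec, were at 0 in no library. The part of muscle and fat in the members' values was not tested.

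**Figure D2:**
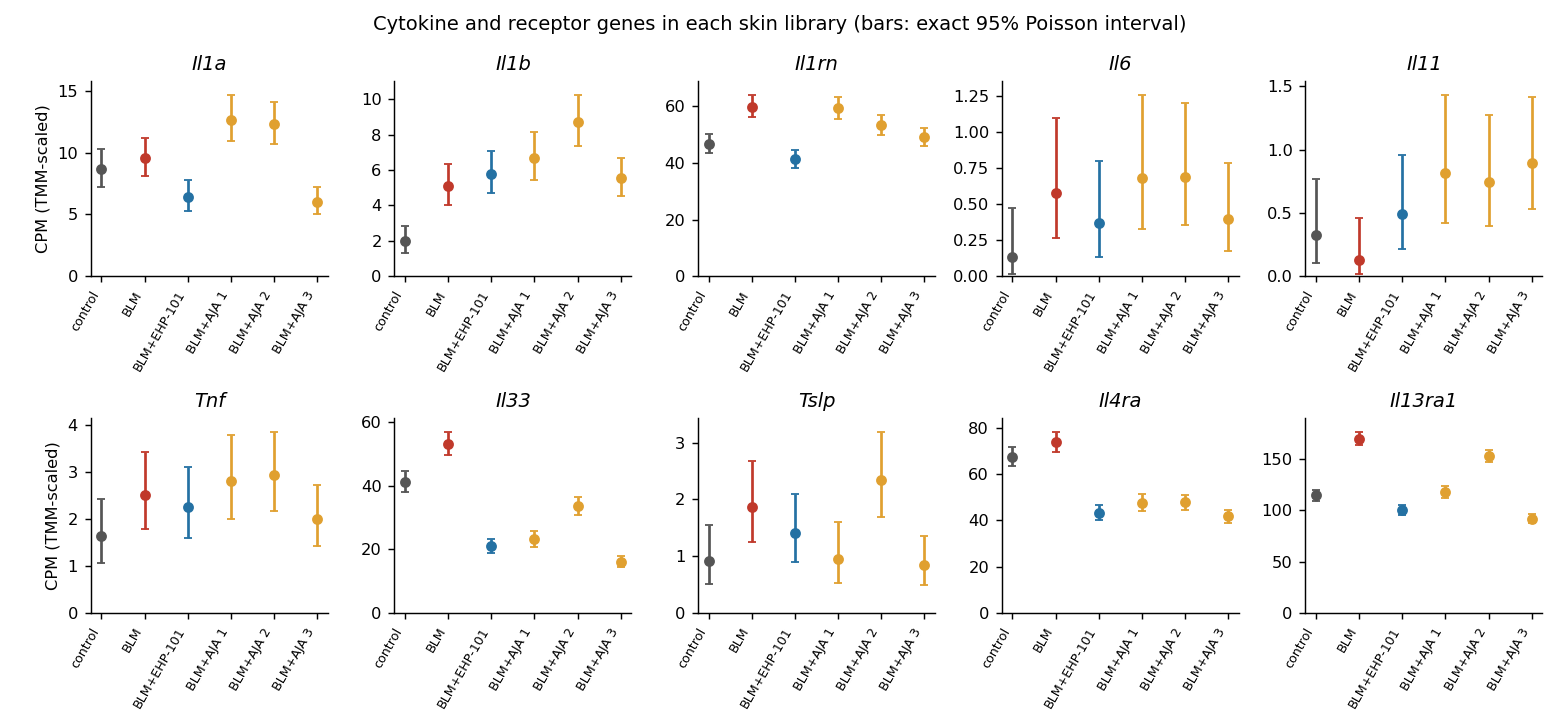
CPM of each gene in each library, with 1 point per library on a linear axis from 0 and bars for the exact 95% Poisson interval of counting (BLM, bleomycin; AJA, ajulemic acid, replicates 1 to 3). Il1b is lowest in control at 1.97 CPM, while Il33, Il4ra, Il13ra1 and Il1rn are highest in the bleomycin library.

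Il33 and the receptor chains had another order. Bleomycin was the highest of the 6 libraries for 4 members, Il33, Il13ra1, Il4ra and Il1rn, where 17% of all tested genes had that order. Il33 (gene 77125, chromosome 19, 29925114 to 29960715) was at 41.2 CPM in control skin, 53.1 after bleomycin alone, 21.0 under EHP-101 and 23.2, 33.5 and 16.1 CPM under ajulemic acid. All 4 libraries of skin given either compound therefore lay below both others. The share of all tested genes with this split was not counted. The split is therefore not read as particular to Il33 or to the genes named with it below. For Il33 the ratio of EHP-101 to bleomycin was 0.395 (counting interval 0.347 to 0.449), and the mean with ajulemic acid was 24.2 ± 8.73 CPM (SD, n = 3).

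Il4ra (gene 16190, chromosome 7, 125552282 to 125579474) showed the same split with less spread. It was at 67.6 CPM in control skin, 73.8 after bleomycin alone, 43.2 under EHP-101 and 47.7, 47.8 and 41.7 CPM under ajulemic acid, a mean of 45.8 ± 3.49 (SD, n = 3). Il13ra1 (gene 16164, chromosome X, 36112139 to 36171262) was at 115 CPM in control skin, 170 after bleomycin alone, 100.02 under EHP-101 and 118, 153 and 91.9 CPM under ajulemic acid. Here control lay inside the range of the treated libraries, between the ajulemic acid replicates. Tslp (gene 53603, chromosome 18) was low, at 0.919 CPM in control skin, 1.86 after bleomycin alone, 1.40 under EHP-101 and 0.954, 2.35 and 0.847 CPM under ajulemic acid. Its libraries had 14 to 41 counts, and the ajulemic acid replicates spanned all the other libraries. It overlaps an opposite-strand gene, 4930455D15Rik, which had 1 count in control and 0 in the other libraries.

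EHP-101 with bleomycin was next compared with bleomycin alone. Of the members, 8 had a negative log2 fold change and the exceptions were Il1b and Il11. The median over the 10 was -0.56, against -0.0003 over all tested genes, of which 50% had a positive value. edgeR called 0 members and 0% of all genes at an adjusted p under 0.05, and DESeq2 and limma called 0 members. At an unadjusted p under 0.05, 1 member was lower and 0 higher by edgeR, where 1.32% of all genes were lower and 0.575% higher. That member was Il4ra, with a log2 fold change of -0.77 (SE 0.21, adjusted p = 0.9998 by edgeR). Il33 had -1.34 (SE 0.53) and Il13ra1 -0.76 (SE 0.38). The counting interval lay below 1 for 5 members (Il1a, Il1rn, Il33, Il13ra1 and Il4ra) and above 1 for 0, where 20% and 19.8% of all genes had this.

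Smaller or less precise differences between these libraries were measured for Il1b, Tnf and Il6. The ratio of EHP-101 to bleomycin was 1.14 for Il1b (counting interval 0.840 to 1.56), 0.902 for Tnf (0.560 to 1.45) and 0.634 for Il6 (0.186 to 1.99). Each interval includes 1, so a difference was not detectable at this depth. Il1b in EHP-101, at 5.79 CPM, remained above the control value of 1.97 CPM (ratio 2.94, counting interval 1.93 to 4.59).

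Ajulemic acid with bleomycin was compared with bleomycin alone in the same fit. All 3 ajulemic acid libraries lay below bleomycin for 4 members (Il33, Il4ra, Il13ra1 and Il1rn) and above it for 2 (Il1b and Il11), where 24.6% and 22.9% of all tested genes did. edgeR called 0 members and 0% of all genes, and DESeq2 and limma called 0 members. At an unadjusted p under 0.05, 2 members were lower, Il4ra and Il33, where 3.21% of all genes were lower. Il11 was higher at that p, as were 0.622% of all genes, but it entered the test only through the ajulemic acid libraries, where it was high, so nothing is read from its p. Of the members, 5 had a positive log2 fold change, where 52.8% of all genes did, and their median was -0.07, against 0.02 over all genes.

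Il4ra had a log2 fold change of -0.69 (SE 0.17, adjusted p = 0.696 by edgeR), the smallest p of the members here, and Il33 one of -1.13 (SE 0.40, adjusted p = 0.998). Il33 in the ajulemic acid libraries ranged from 16.1 to 33.5 CPM among replicates. Its highest value was in replicate 2, the library with 508 CPM of hair shaft markers, and its lowest in replicate 3, with 25605 CPM. Among the ajulemic acid libraries, 7 of the 10 members (Il33, Il13ra1, Tslp, Il1b, Il6, Tnf and Il4ra) were highest in replicate 2 and lowest in replicate 3, as were 26.7% of all tested genes. Hair shaft markers were at 11697, 1036 and 10319 CPM in control, bleomycin and EHP-101, and Il33 at 41.2, 53.1 and 21.0 CPM. Ajulemic acid replicate 1 had 10871 CPM of hair shaft markers and Il33 at 23.2 CPM. The part of hair follicle content in these values was not tested.

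The summed fibroblast markers had the same split as Il33 and Il4ra, but not marker by marker. The 10 fibroblast genes, all detected in every library, summed to 6564 CPM in control skin, 7034 after bleomycin alone, 3833 under EHP-101 and 4011, 5141 and 3472 CPM under ajulemic acid. The libraries of skin given either compound thus lay below the others in this sum, of which Col1a1, Col1a2 and Col3a1 made up 6366 CPM in bleomycin. Of the 10 markers, 5 had all 4 of these libraries below both others. Decorin, Dcn, was at 604 CPM in control skin, 293 after bleomycin alone, 305 under EHP-101 and 301, 681 and 241 CPM under ajulemic acid. The 10 keratinocyte genes gave another order, with 13034 CPM in control skin, 19173 after bleomycin alone, 14156 under EHP-101 and 19601, 17798 and 14356 CPM under ajulemic acid. The 10 endothelial genes summed to 257, 324 and 349 CPM in the same first 3 libraries and to 208 to 274 CPM with ajulemic acid. The part of these cell types in the members' values was not tested.

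**Figure D3:**
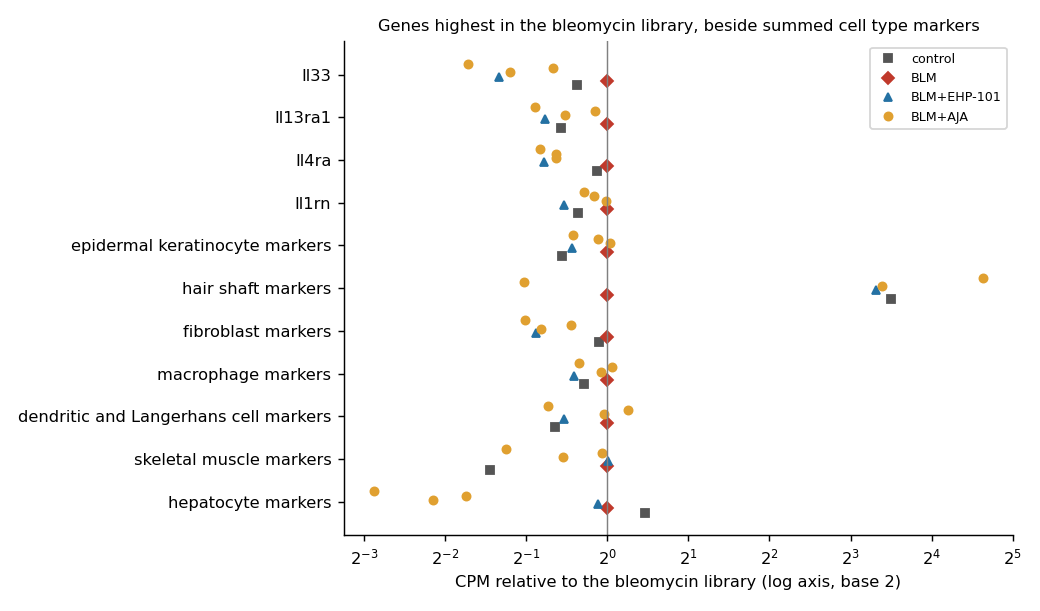
CPM relative to the bleomycin library on a log axis of base 2, for the 4 genes highest in that library and for summed markers of 7 cell types, with 1 point per library (BLM, bleomycin; AJA, ajulemic acid). Il33 and the fibroblast sum lie left of control in all 4 treated libraries, and the hair shaft and hepatocyte sums spread much more widely than any of the 4 genes.

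Il11, a cytokine that fibroblasts make, had 5 counts in control skin, 2 after bleomycin alone, 8 under EHP-101 and 12, 13 and 18 under ajulemic acid. Bleomycin was the lowest library and the ajulemic acid libraries were the highest, at 0.820 ± 0.0762 CPM (SD, n = 3). The ratios of ajulemic acid replicates 1, 2 and 3 to bleomycin were 6.38 (counting interval 1.42 to 58.7), 5.81 (1.31 to 53.0) and 6.995 (1.67 to 62.2), and all rest on the same 2 counts in bleomycin. Against control the counting intervals of the 3 ratios included 1. The counted gene model (gene 16156, chromosome 7, 4772378 to 4778141, minus strand) overlaps an opposite-strand gene that had 3 or fewer counts in each library.

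**Figure D4:**
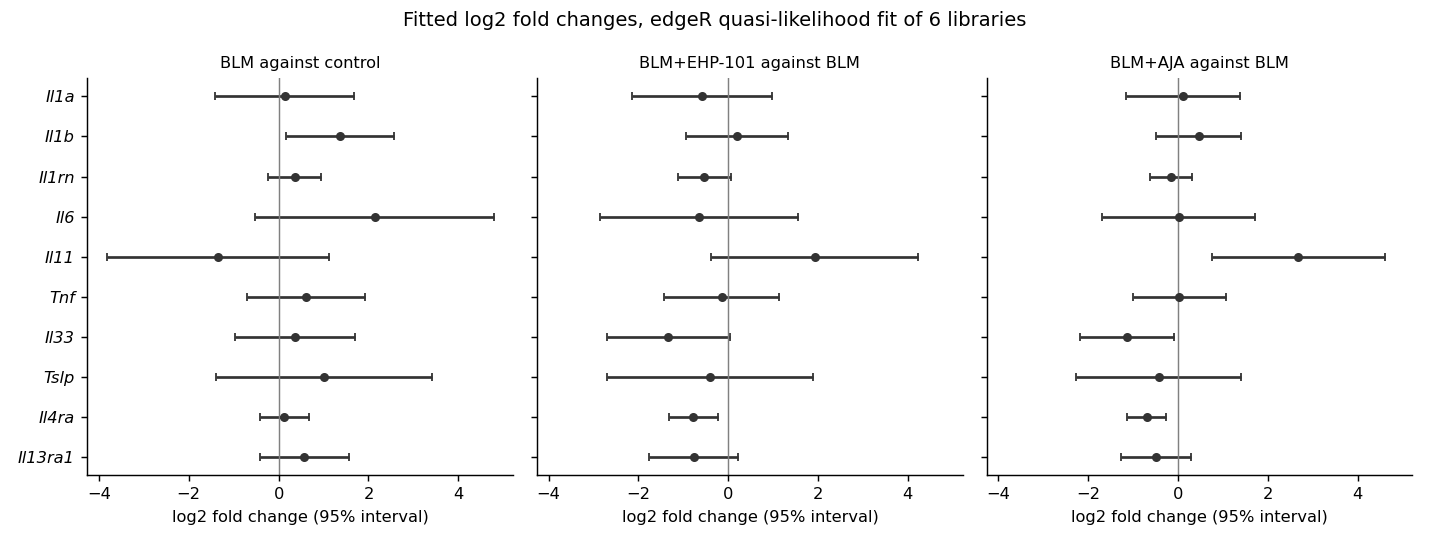
Fitted log2 fold changes of the 10 genes with 95% intervals from edgeR's quasi-likelihood fit, in bleomycin (BLM) against control, EHP-101 against bleomycin and ajulemic acid (AJA) against bleomycin. The comparisons share the bleomycin library, and no gene passed the adjusted threshold, although the unadjusted interval of Il4ra lies below 0 in both treated comparisons.

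The treated skins were also set against control and against each other. Against control, edgeR called 0 members in EHP-101, where 0% of all genes were called, and 0 with ajulemic acid, where 0.0345% were. DESeq2 and limma called 0 members in both. At an unadjusted p under 0.05, Il1b was higher and Il4ra lower in each comparison, where 2.92% of genes were higher and 1.71% lower under EHP-101 and 3.02% and 4.1% under ajulemic acid. Against control, Il4ra had log2 fold changes of -0.65 (SE 0.21) under EHP-101 and -0.56 (SE 0.17) under ajulemic acid, and Il33 of -0.97 (SE 0.52) and -0.76 (SE 0.41). All 3 ajulemic acid libraries lay above control for 5 members, Il1b, Il1rn, Il6, Il11 and Tnf, and below it for 2, Il33 and Il4ra, where 26.9% and 22.2% of all genes did. The count above control gains no support from Il6 and Il11, which passed the filter only through ajulemic acid libraries.

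Between the treatments, edgeR called 0 members in ajulemic acid against EHP-101, where 0% of all genes were called, and 0 members had an unadjusted p under 0.05. DESeq2 and limma also called 0. The smallest unadjusted p was that of Il1rn, with a log2 fold change of 0.38 (95% interval -0.11 to 0.87). The interval was -0.37 to 0.54 for Il4ra and -0.91 to 1.33 for Il33, so differences of up to these sizes were not resolved. All 3 ajulemic acid libraries lay above EHP-101 for Il1rn, Il6 and Il11, 3 of the 10 members, where 19.8% of all genes did. Il6 and Il11 passed the filter only through ajulemic acid libraries, so they are no support for that count.

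Other genes of these pathways were described by lists, none of whose members passed the adjusted threshold in the 3 comparisons above. Against control, 5 of 6 other IL-1 family ligands were higher in bleomycin (median log2 fold change 1.25), as were 13 of 14 IL-1 family receptors and signalling genes (median 0.55) and 8 of 9 inflammasome genes (0.55), beside a median of -0.01 over all genes. Of all tested genes, 49.5% were higher in bleomycin, a share that also stands beside the lists below. Against bleomycin the medians of these 3 lists were -1.38, -0.39 and -0.54 under EHP-101 and -0.56, -0.36 and -0.27 under ajulemic acid. Shifts in the same directions were measured for some cell type markers. All 10 keratinocyte markers were higher in bleomycin than in control (median 0.63), and all 10 adipocyte markers lower. Of the 10 dendritic and Langerhans cell markers, 9 were higher and 1 lower (median 0.83). The keratinocyte and dendritic medians against bleomycin were -0.37 and -0.69 under EHP-101, and -0.28 and -0.20 under ajulemic acid. The part of these cell types in the lists was not tested. The IL-36 gamma gene Il1f9, an epidermal cytokine, was at 16.9 CPM in control skin, 54.0 after bleomycin alone, 19.4 under EHP-101 and 41.0, 39.0 and 17.9 CPM under ajulemic acid. Il18, another keratinocyte cytokine of the family, was at 23.7, 42.0 and 17.2 CPM in the first 3 libraries and 32.0, 45.5 and 18.8 CPM under ajulemic acid. For both genes ajulemic acid replicates 1 and 2 lay above control and EHP-101, and replicate 3 lay between them. Il1f8, the gene of IL-36 beta, was at 3.22 CPM in control skin, 15.8 after bleomycin alone, 3.66 under EHP-101 and 8.38, 13.0 and 4.59 CPM under ajulemic acid. The decoy protein gene Il18bp stayed between 8.82 and 11.9 CPM. Il1r1, the receptor that transmits IL-1, was at 55.8 CPM in control skin and 80.9 after bleomycin alone, and between 60.2 and 65.9 CPM in the 4 libraries of skin given either compound. Irak1, a kinase below that receptor, stayed between 57.4 and 64.2 CPM. Among inflammasome genes, Casp1, whose product cuts the IL-1 beta precursor, was at 28.6 CPM in control skin, 28.0 after bleomycin alone, 19.4 under EHP-101 and 25.8, 35.4 and 24.6 CPM under ajulemic acid. Nlrp10, which is expressed in epidermis, was at 59.95, 87.7 and 49.8 CPM in the first 3 libraries and 73.3, 87.4 and 43.8 CPM under ajulemic acid. Il1rl1, the receptor of IL-33, was added after its values were seen. It was at 9.19 CPM in control skin, 22.1 after bleomycin alone, 10.1 under EHP-101 and 14.0, 13.4 and 9.52 CPM under ajulemic acid.

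Among IL-6 family receptors and signalling genes, 10 of 12 were higher in bleomycin than in control (median 0.41). Il6st, which encodes gp130, was at 255 CPM in control skin and 346 after bleomycin alone, and Stat3 at 129 and 205 CPM. Stat3 was at 165 CPM in EHP-101 and at 181, 173 and 151 CPM with ajulemic acid, so all 5 bleomycin-exposed libraries were above control. Control was the lowest library for 22% of all tested genes, a share that also stands beside the genes below with that order. Osmr, the receptor of oncostatin M, was at 59.3 CPM in control skin, 104 after bleomycin alone, 79.9 under EHP-101 and 75.8, 90.0 and 60.5 CPM under ajulemic acid. Of the other ligands that use gp130, 4 of 6 tested were higher in bleomycin (median 0.46), and Lif was at 1.97 CPM in control and 2.54 to 3.21 CPM in the other 5 libraries. Of 11 STAT3 target genes, Il4ra among them, 10 were higher in bleomycin (median 0.80). Against bleomycin the medians of the receptor and signalling list were -0.34 under EHP-101 and -0.29 under ajulemic acid, and those of the STAT3 targets 0.02 and 0.03. Hp, the acute phase protein haptoglobin, was at 90.5 CPM in control skin, 295 after bleomycin alone, 638 under EHP-101 and 430, 366 and 309 CPM under ajulemic acid. Hepatocytes also make haptoglobin, and Alb was at 678, 477 and 454 CPM in the first 3 libraries and 1.74 to 12.6 CPM with ajulemic acid. The part of hepatocyte RNA, or of any other cell type, in the Hp values was not tested.

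For TNF and NF-kB, 8 of 9 TNF partners and receptors (median 0.42) and 12 of 14 NF-kB feedback and target genes (median 0.52) were higher in bleomycin than in control. Nfkbia, which encodes the inhibitor that NF-kB itself induces, was at 55.6 CPM in control skin, 96.3 after bleomycin alone, 87.7 under EHP-101 and 83.3, 85.3 and 71.1 CPM under ajulemic acid. The related Nfkbiz was at 54.2, 97.7 and 93.9 CPM in the same first 3 libraries and at 96.6, 107 and 82.8 CPM under ajulemic acid. Control was the lowest library for both, as for 22% of all tested genes. Sod2, a mitochondrial superoxide dismutase, was highest in control, with 98.4 CPM in control and 69.3 to 76.3 CPM in the 5 exposed libraries. Of all tested genes, 17.9% were highest in control. The TNF receptor gene Tnfrsf1a was at 79.5 CPM in control and 94.7 to 109 CPM in the exposed libraries, and Tnfrsf1b at 23.2 and 32.3 to 42.1 CPM. Adam17, the protease that sheds TNF, was at 84.9 CPM in control skin, 113 after bleomycin alone, 80.02 under EHP-101 and 99.4, 112 and 83.4 CPM under ajulemic acid. Against bleomycin the TNF list had medians of -0.28 under EHP-101 and -0.13 under ajulemic acid, and the NF-kB list of -0.06 and -0.04.

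On the type 2 side, Il4, Il5, Il13 and Il25 were too low to be tested. All 8 tested genes of the list of type 2 cytokines and receptors were higher in bleomycin than in control (median 0.96), and all 8 were lower in EHP-101 than in bleomycin (median -0.38). With ajulemic acid against bleomycin they were divided, 4 higher and 4 lower (median -0.18). In these comparisons, in that order, 49.5%, 50% and 52.8% of all tested genes had a positive log2 fold change. The bleomycin library is shared by them. Stat6, which carries the signal of Il4ra, was at 93.7 CPM in control and 106 to 115 CPM in the other libraries. Genes that respond to IL-4 and IL-13 were divided, 5 of 11 being higher in bleomycin (median -0.08), and had medians of -0.32 under EHP-101 and 0.07 under ajulemic acid against bleomycin. Periostin, Postn, which IL-13 induces in fibroblasts, was at 642 CPM in control skin, 782 after bleomycin alone, 398 under EHP-101 and 386, 484 and 325 CPM under ajulemic acid. Here too the 4 libraries of skin given either compound lay below both others. Mrc1, a macrophage receptor that IL-4 raises, was at 180 CPM in control skin, 183 after bleomycin alone, 130 under EHP-101 and 171, 279 and 128 CPM under ajulemic acid, and Arg1 stayed between 21.0 and 28.2 CPM in all 6 libraries. Retnla, of the same list, was added after its values were seen. It was at 77.2 CPM in control skin, 4.10 after bleomycin alone, 5.12 under EHP-101 and 3.68, 6.42 and 3.84 CPM under ajulemic acid. Il7r, a chain of the TSLP receptor, was at 3.68 CPM in control skin, 13.7 after bleomycin alone, 5.85 under EHP-101 and 5.93, 8.995 and 4.09 CPM under ajulemic acid.

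**Figure D5:**
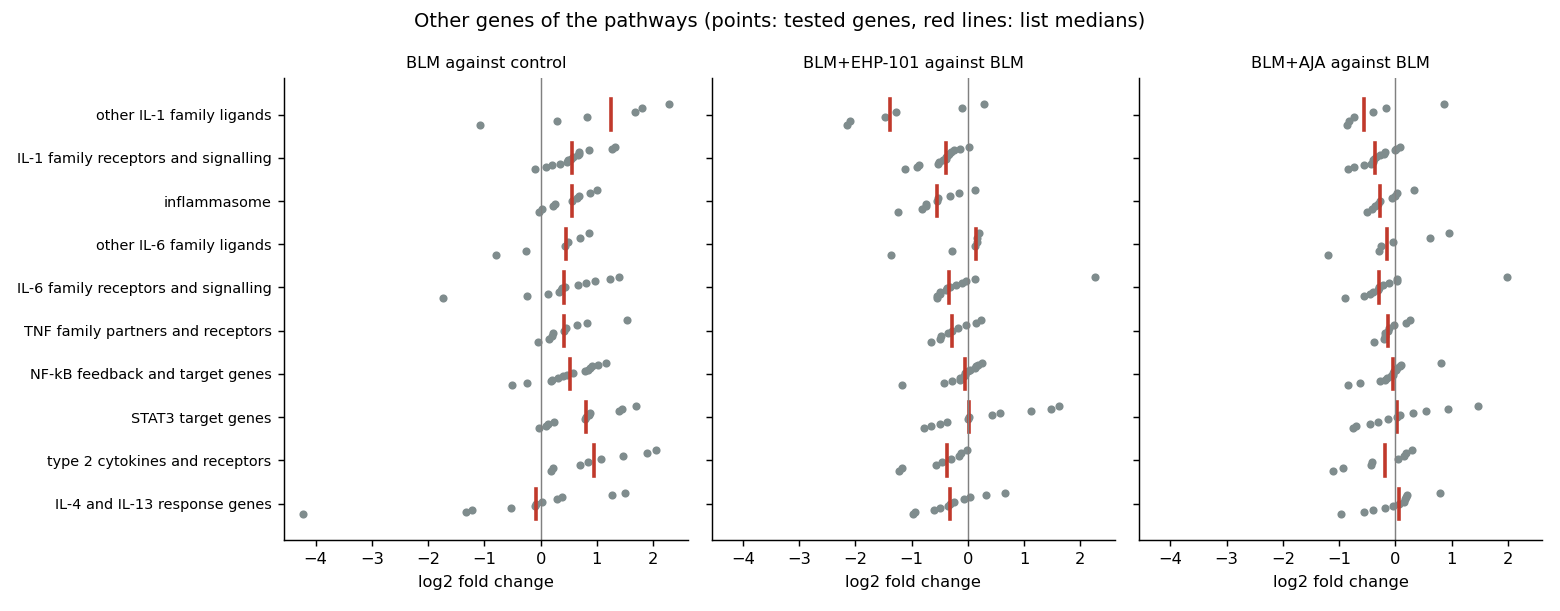
Log2 fold changes of the tested genes of 10 pathway lists (grey points) and list medians (red lines) in bleomycin (BLM) against control, EHP-101 against bleomycin and ajulemic acid (AJA) against bleomycin. In the first comparison 9 of the 10 medians lie above 0 and the list of IL-4 and IL-13 response genes lies at -0.08; the panels share the bleomycin library.

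For the 6 members with at least 30 counts in every library, the genes whose log2 CPM was most alike were looked up among 12763 genes. Over 6 libraries, Pearson's r was 0.996 between Il1b and Ephx1, 0.994 with Oas2 and 0.990 with Fcgr1. Il33 was most like Fbh1, Oxsm and Cuedc1 (0.990, 0.988 and 0.988) and Il4ra most like the collagen gene Col1a2 (0.982), then Pter and Adamts15 (0.972 and 0.971). Il1rn was nearest to Urah (0.997), Il13ra1 to Mindy2 (0.994) and Il1a to Dubr (0.985). With 6 points in 4 groups and so many candidates, these values describe the libraries only.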

How the data were processed

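Total RNA of frozen skin was sequenced as stranded, ribosomal RNA depleted libraries with single-end reads of 50 bases, per the labels' protocols. The submitters' processing notes name HISAT2 2.1.0 with mm10, Trimmomatic 0.36, DESeq2 1.20.0 and featureCounts 1.6.1. The authors deposited raw counts per gene with exon coordinates; its strand and multi-mapping settings were not stated. A merged deposited table had 0 differing values for the 6 libraries. Its 6 sample columns from another series were not used, so any replicates of these groups among them add nothing here.

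Symbols were found for 25275 of 27179 gene numbers. Genes were filtered with filterByExpr (minimum count 10, 17377 tested) and fitted with edgeR 4.0.16 (R 4.3.3; TMM, robust quasi-likelihood F-tests, two-sided, Benjamini-Hochberg, threshold 0.05) on all 6 libraries, with 2 residual degrees of freedom. SEs were derived from the F statistic. Alternatives included DESeq2 1.42.0 and limma 3.58.1. The methods were tested on simulated data. Ajulemic acid libraries differed from each other (chi-square at least 35.0 per degree of freedom) and were counted separately. Members and lists were chosen with earlier results of these data known. Besides the members, genes were taken from the 4 most abundant of each pathway list and the 3 most correlated with each member above 30 counts. Not all are described. Il1rl1 and Retnla were added after their values were seen. The 95% intervals of counts are exact.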

Additional observations from a re-analysis of the deposited data

How the results depend on the processing

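Over the alternatives run, 871 values of a member kept their direction and their side of the threshold; 16 reversed and 1, Il1b with ajulemic acid against control, passed without ajulemic acid replicate 3. The number of members called stayed at 0 under each other alternative, and ran from 0 to 1 there when 1 ajulemic acid library was left out. The largest value that reversed was that of Tslp under ajulemic acid against control, 0.59, which was -0.089 without ajulemic acid replicate 2. With each ajulemic acid library left out in turn, log2 fold changes against bleomycin ran from -0.060 to 0.39 for Il1a, -0.12 to 0.24 for Il6 and -0.063 to 0.19 for Tnf. Against control they ran from -0.089 to 0.86 for Tslp and -0.18 to 0.24 for Il13ra1, and against EHP-101 from -0.12 to 0.43 for Il33 and -0.66 to 0.25 for Tslp. For Il6 against bleomycin, limma gave -0.0017, upper quartile scaling -0.0253 and library totals -0.00804. Upper quartile scaling gave -0.0042 for Tnf against bleomycin, and library totals -0.013 for Il4ra against EHP-101. Library totals alone shifted the median of all genes by 0.13 in EHP-101 against control.

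Counts over all genes moved more, and the cause was not tested. In bleomycin against control, EHP-101 against bleomycin, ajulemic acid against bleomycin, EHP-101 against control, ajulemic acid against control and ajulemic acid against EHP-101, edgeR called 0, 0, 0, 0, 6 and 0 genes and DESeq2 164, 10, 104, 121, 268 and 67. Leaving out 1 ajulemic acid library gave 0 to 179, 0, 0 to 92, 0 to 91, 0 to 368 and 0 to 67 calls in that order, the highest without replicate 3 in the 5 comparisons with any call. With no filter, ajulemic acid gave 41 calls against bleomycin, 153 against control and 16 against EHP-101. Against control it gave 35 with library totals, and 0 with limma, with at least 10 counts in every library, with only the 2 groups compared, and, both chosen after seeing the data, without hepatocyte and hair shaft genes or without the bleomycin library. No paired analysis was possible because the groups share fewer than 2 replicate numbers. Depth limited Il6 and Il11, which had as few as 2 counts.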

Other observations

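Within each library the balance of the interleukin-1 genes was also computed from levels per exon length. The antagonist Il1rn was 11.7 times as abundant as Il1b in control skin, 5.83 times after bleomycin alone, 3.52 times under EHP-101 and 4.38, 3.02 and 4.37 times in ajulemic acid replicates 1, 2 and 3. Control was the highest library in this ratio. Il1b, its denominator, was lowest in control, so this order is not a separate finding. Among single genes, control was highest for 17.9% and lowest for 22% of those tested. The share of gene pairs with such an order was not counted. The ratio of Il1rn to Il1a had no such order, at 3.96 in control skin, 4.60 after bleomycin alone, 4.74 under EHP-101 and 3.43, 3.18 and 5.97 under ajulemic acid. Il1b was at 0.338 times the level of Il1a in control and between 0.783 and 1.36 times in the other libraries. These ratios use the same counts as the report and were not tested.

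The ratio of the receptor chains, Il13ra1 to Il4ra, was 2.35 in control skin, 3.18 after bleomycin alone, 3.20 under EHP-101 and 3.42, 4.43 and 3.04 under ajulemic acid. Control was the lowest library here. This ratio was not tested either, and the share of gene pairs with that order was not counted.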
